A study of Mus musculus with 24 samples.

Results

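The genes described here are 9 members of the TGF-β pathway, followed in liver-resident invariant natural killer T (LiNKT) cells of NOD mice through RNA, DNA methylation and chromatin accessibility. They come from a list of names drawn up when earlier results of these data, a gain of methylation at Tgfbr2 and a loss at Twsg1 among them, were known: the ligand gene Tgfb1, the receptor genes Tgfbr1, Tgfbr2 and Tgfbr3, the signal carrier Smad3, the inhibitor Smad7, the co-repressors Ski and Skil, and Twsg1, a secreted regulator of the related BMP ligands. All 9 are among the 55401 genes of the single-cell count tables, and 10 of the 2873 differentially methylated regions lie within 50 kb of one of them. NOD mice are an inbred strain that develops autoimmune diabetes spontaneously. Treated mice received αGalCer/CD1d-NP, nanoparticles that carry CD1d molecules loaded with the glycolipid αGalCer, at 20 µg in 2 doses a week for 5 weeks, starting at 8 to 10 weeks of age. Control mice were left untreated or were given particles coated with cysteine, and the labels call them all untreated. In every assay the cells were sorted from the liver as αGalCer/CD1d tetramer-positive cells.

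Full-length RNA of single cells (SmartSeq2) came from 3 male mice per group at 13 to 15 weeks of age. Whole genome bisulfite sequencing (WGBS) used 7 untreated female mice at 17 weeks and 4 treated mice at 16 weeks, whose sex is not stated, and its 3 replicates per group reach the tables as 1 value per group. Chromatin fragments of single nuclei (10X multiome) came from 5 untreated and 4 treated male mice of 13 to 15 weeks. The fragments carry barcodes ending in 1 or 2, and no source used here says which ending is which treatment, so the endings are compared by number only. Every assay therefore has 1 sample per group, and no difference below has a replicate check. Intervals are 95% intervals that cover counting error only.

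The SmartSeq2 tables gave 273 untreated and 251 treated cells that are in the study's list of cells with a sub-cluster, with 172559865 and 149084200 counts. A cell held a median of 635257 counts over 861 genes in the untreated group and 599896 counts over 850 genes in the treated group. SmartSeq2 adds no molecular identifiers, so a count is a read and not a molecule, and the reads of 1 cell can come from few molecules. Levels below are counts per 1000000 counts (CPM), from the counts summed over the cells of a group. The cell names carry a number, 1 or 2, which is called the lane below. No label says that this number is a sequencing lane. Of 8 marker genes of T and iNKT cells, all 8 were measured and within 2-fold between the groups, with summed levels of 5974 and 5595 CPM.

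TGF-β binds the receptor chain encoded by Tgfbr2, which recruits and activates the chain encoded by Tgfbr1, while the betaglycan encoded by Tgfbr3 presents the ligand to them. The active receptor phosphorylates SMAD2 and SMAD3, which enter the nucleus with SMAD4 and bind DNA, whereas SMAD7 blocks the receptor and SKI and SKIL (SnoN) hold SMAD target genes in check. In T cells the pathway is known for restraining cytotoxic effector genes and for its part in regulatory and tissue-resident programs.

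The 5 regions that the methylation and chromatin results below turn on are shown first. They are read from the + strand of GRCm38, the reference genome and not the NOD genome, and capitals mark the CpG dinucleotides, whose cytosines were measured. Regions longer than 300 bases are shown by the 300 bases with most of their CpGs. Regions 1 and 3 of Tgfbr2 and region 1 of Ski were more methylated in the treated group, and region 1 of Tgfbr3 and region 1 of Twsg1 less.
Tgfbr2 region 1, chr9:116133687-116133986: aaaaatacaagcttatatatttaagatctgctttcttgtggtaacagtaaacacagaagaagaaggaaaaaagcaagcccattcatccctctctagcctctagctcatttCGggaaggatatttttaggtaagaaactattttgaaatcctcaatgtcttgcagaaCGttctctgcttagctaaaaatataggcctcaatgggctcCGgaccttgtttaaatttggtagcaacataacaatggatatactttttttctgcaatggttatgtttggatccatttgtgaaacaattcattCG
Tgfbr2 region 3, chr9:116216795-116217042: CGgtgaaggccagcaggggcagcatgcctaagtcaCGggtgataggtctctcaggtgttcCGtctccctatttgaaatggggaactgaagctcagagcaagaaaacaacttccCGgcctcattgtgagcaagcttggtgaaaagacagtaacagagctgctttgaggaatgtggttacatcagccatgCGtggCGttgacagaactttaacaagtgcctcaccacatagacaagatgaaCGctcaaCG
Tgfbr3 region 1, chr5:107260752-107261008: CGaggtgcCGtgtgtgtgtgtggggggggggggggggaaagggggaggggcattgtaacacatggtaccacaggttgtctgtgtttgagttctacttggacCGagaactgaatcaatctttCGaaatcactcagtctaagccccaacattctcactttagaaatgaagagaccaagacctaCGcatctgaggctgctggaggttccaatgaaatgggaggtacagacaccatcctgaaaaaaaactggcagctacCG
Ski region 1, chr4:155195386-155195674: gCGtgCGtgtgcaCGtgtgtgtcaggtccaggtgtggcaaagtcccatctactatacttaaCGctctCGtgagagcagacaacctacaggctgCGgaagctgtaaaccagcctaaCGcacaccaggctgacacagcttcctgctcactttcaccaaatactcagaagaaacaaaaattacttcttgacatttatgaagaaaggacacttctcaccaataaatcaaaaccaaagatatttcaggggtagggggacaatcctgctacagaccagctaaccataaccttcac
Twsg1 region 1, chr17:65939336-65939635: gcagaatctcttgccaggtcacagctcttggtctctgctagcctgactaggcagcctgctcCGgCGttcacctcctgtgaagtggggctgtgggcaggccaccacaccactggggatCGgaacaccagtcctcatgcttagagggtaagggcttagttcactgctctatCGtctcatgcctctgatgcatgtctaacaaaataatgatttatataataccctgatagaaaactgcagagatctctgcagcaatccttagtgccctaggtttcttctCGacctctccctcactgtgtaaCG

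The question of the expression comparison was how the RNA of the pathway differed between LiNKT cells of treated and untreated mice. Twsg1 was read in treated cells only, Tgfbr1 and Ski were higher in the treated sum, and Tgfbr2 was lower. The level of Smad3, the member with the highest pooled level per kb of exon, differed little. No member was read in more than 8.79% of the cells of a group, so that the sums rest on few cells. By a fold of 2 on the log2 scale with 1 CPM added to both groups, 5 of the 9 members differed, against 37.2% of the 15052 genes with at least 10 summed counts. In the direction of higher treated levels 4 members passed (Tgfbr1, Tgfbr3, Ski and Twsg1), against 20.1% of all genes, and in the other direction 1 (Tgfbr2), against 17.2%. The median log2 ratio of treated over untreated was 0.38 over the 9 members and 0.02 over all genes tested. Among the 10715 genes with at least 500 summed counts these shares were 44.2% either way, 23.5% higher and 20.7% lower.

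**Figure D1:**
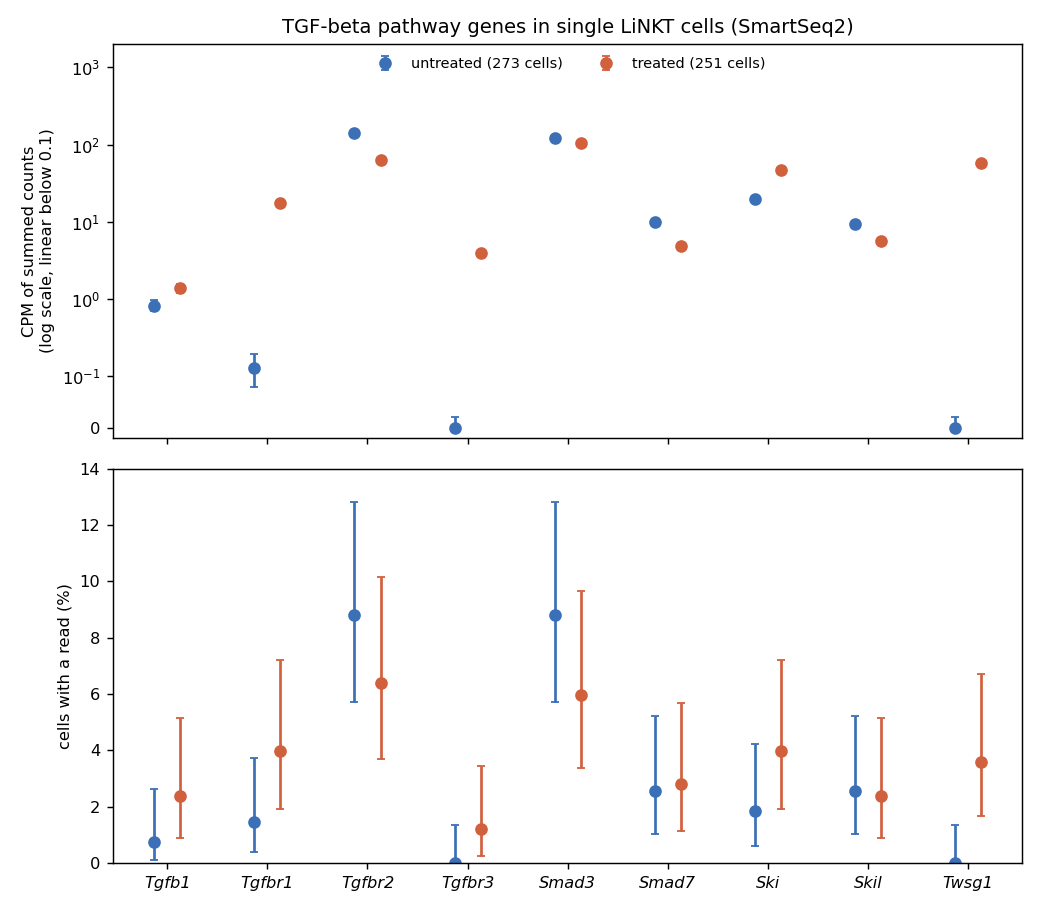
Level of the 9 members in CPM of summed counts (top, log scale that is linear below 0.1, Poisson intervals) and share of cells with a read in percent (bottom, exact binomial intervals), untreated (273 cells, blue) against treated (251 cells, orange). Twsg1 and Tgfbr3 have no read in untreated cells, and Tgfbr1 differs most among the members read in both groups.

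The receptor genes did not move together. Tgfbr2 encodes the ligand-binding receptor chain. The untreated sum held 141 CPM (139 to 143) of it and the treated sum 62.6 CPM (61.3 to 63.9), a 2.25-fold higher level without treatment. The share of cells with a Tgfbr2 read was 8.79% (24 of 273, exact interval 5.71 to 12.8%) and 6.37% (16 of 251, 3.69 to 10.1%), and these intervals overlap. Among cells with a read, the median level was 1198 CPM without and 459 CPM with treatment, and the ranges, from 4.09 to 5100 CPM and from 2.24 to 3265 CPM, overlap almost fully. The cell with most reads held 14.9% of the untreated and 16.3% of the treated reads, so that no single cell carried the Tgfbr2 level. With every cell given the same weight the log2 ratio was −0.80, under 2-fold, where the sums gave −1.16. With every cell thinned to 200000 reads, which leaves out 6 untreated and 8 treated cells, the shares were 8.84% and 6.11%.

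Tgfbr1 encodes the signalling receptor chain. It gave 22 counts in 4 untreated cells (0.13 CPM, 0.080 to 0.19) and 2618 counts in 10 treated cells (17.6 CPM, 16.9 to 18.2), a ratio of 138 with a counting interval of 90.8 to 220. The share of cells with a read was 1.47% (0.40 to 3.71%) against 3.98% (1.93 to 7.20%), with overlapping intervals. The 4 untreated cells held between 3.84 and 46.8 CPM, and the 10 treated cells between 2.17 and 1314 CPM, 8 of them above every untreated cell. The counts thus differed far more than the number of cells. Of the 2618 treated counts, 1391 came from 2 cells that also held macrophage marker reads. Without all cells with macrophage or hepatocyte reads the levels were 0.13 and 8.68 CPM, a ratio of 67.5. Without the cell with most reads in each group the log2 ratio stayed above 2, as in each lane.

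Tgfbr3 encodes betaglycan, the co-receptor that presents the ligand. It had no read in 273 untreated cells, which allows a share of up to 1.10%, and 593 counts in 3 treated cells (3.98 CPM). A single cell held 93.9% of these counts. Without that cell the log2 ratio was 0.31, so the Tgfbr3 level describes 1 cell, and no fold over the untreated group is given. Tgfb1, the ligand gene, was read in few cells, with 0.82 CPM (0.69 to 0.97) in 2 untreated cells and 1.38 CPM (1.19 to 1.58) in 6 treated cells. Over all cells of the deposited tables the direction of the Tgfb1 difference turned, with a log2 ratio of −0.21.

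Of the SMAD genes, Smad3, the main carrier of the signal, stood at 122 CPM (120 to 123) without and 104 CPM (102 to 105) with treatment. It was read in 24 of 273 and 15 of 251 cells (8.79% and 5.98%), and the intervals of 5.71 to 12.8% and 3.38 to 9.67% overlap. The median over cells with a read was alike, at 1449 CPM and 1504 CPM. The log2 ratio of −0.23 turned to 0.75 in the second lane alone. Smad7, the inhibitory SMAD, had 10.0 CPM (9.57 to 10.5) against 4.82 CPM (4.48 to 5.19), each in 7 cells. A single treated cell held 70.8% of the treated Smad7 reads, and the log2 ratio of −0.92 ranged from −2.88 to −0.06 over the alternative settings.

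Of the co-repressor genes, Ski passed the 2-fold mark and Skil did not. Ski had 19.98 CPM (19.3 to 20.7) in 5 untreated cells and 46.8 CPM (45.7 to 47.9) in 10 treated cells, a ratio of 2.34. The 5 untreated cells lay between 4.87 and 2483 CPM and the 10 treated cells between 6.53 and 2794 CPM, so the ranges overlap. With every cell given the same weight the log2 ratio of Ski was 0.91, under 2-fold. Skil had 9.45 CPM (8.99 to 9.92) in 7 untreated cells and 5.63 CPM (5.26 to 6.03) in 6 treated cells. A single untreated cell held 79.3% of the untreated Skil reads, and without the top cells the log2 ratio turned from −0.65 to 0.53.

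Twsg1 encodes a secreted protein that binds BMPs and chordin and modulates BMP signalling. It had no read in 273 untreated cells, which allows a share of up to 1.10%, and 8554 counts in 9 treated cells, a share of 3.59% (1.65 to 6.70%). The treated level was 57.4 CPM (56.2 to 58.6). No fold over the untreated group is given, since a single cell could add up to 2955 reads. The missing untreated reads thus bound the share of cells better than the level. The 9 cells held 33.1, 97.1, 247, 354, 1010, 1152, 2348, 3205 and 3340 CPM. They are spread over the whole range, and the cell with most reads, at 3205 CPM, held 34.5% of them. The value of 247 CPM comes from 1 read in a cell of 4056 counts in all. Thinned to 200000 reads per cell, the treated share was 3.29%.

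**Figure D2:**
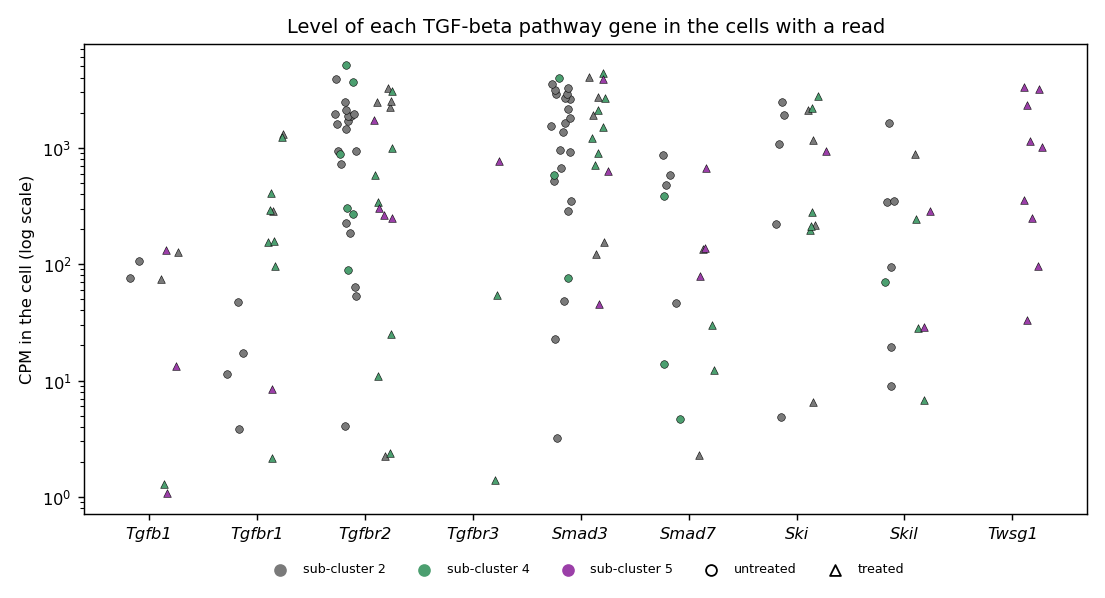
CPM (log scale) of each member in the cells with a read of it, circles for untreated and triangles for treated cells, coloured by the sub-cluster of the cell. All 9 cells with a Twsg1 read are treated cells of sub-cluster 5, whereas cells with Tgfbr2 or Smad3 reads come from several sub-clusters.

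Within a group, levels were ordered per kb of exon. In untreated cells the order was Smad3 (21.9 CPM per kb), Tgfbr2 (17.2), Ski (3.59), Smad7 (2.22), Skil (0.97), Tgfb1 (0.16) and Tgfbr1 (0.020), with Tgfbr3 and Twsg1 at 0. In treated cells it was Smad3 (18.7 CPM per kb), Twsg1 (11.1), Ski (8.42), Tgfbr2 (7.64), Tgfbr1 (2.69), Smad7 (1.07), Tgfbr3 (0.61), Skil (0.58) and Tgfb1 (0.27). Smad3 led both orders of the pooled sums, but not in every subset of cells. In the second lane of untreated cells Tgfbr2 (18.9 CPM per kb) was above Smad3 (12.8), as in untreated sub-cluster 4 (32.7 against 12.1), and in treated sub-cluster 5 Twsg1 (44.6) was above Smad3 (13.3). The counting intervals of Tgfbr3 and Skil overlap in treated cells, and those of the other neighbours with reads do not. These intervals leave out the spread between cells, so they do not settle the order, which differed by lane. In the first lane of treated cells Smad7 (6.43 CPM) was above Tgfbr1 (3.80 CPM). In the second lane Twsg1 (1.15 CPM) was below Tgfb1 (1.76 CPM).

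At least 1 member was read in 65 of 273 untreated cells (23.8%, 18.9 to 29.3%) and 69 of 251 treated cells (27.5%, 22.1 to 33.5%), and these intervals overlap. Reads of 2 members were found in 8 untreated and 11 treated cells, and reads of 3 members in 1 treated cell. No cell of either group had reads of both Tgfbr1 and Tgfbr2, which allows shares of up to 1.10% and 1.20%. With Tgfbr1 read in 4 and 10 cells and Tgfbr2 in 24 and 16, less than 1 shared cell per group is what unrelated detection would give, so that nothing can be read from the 0. Tgfbr2 and Smad3 were read together in 1 cell per group, and Tgfbr2 and Twsg1 in 2 treated cells. With a median of 861 and 850 genes read per cell, a missing read does not show that a gene was silent.

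The study's sub-clusters divide the members further. Sub-cluster 5, which the study names for its likeness to type 1 regulatory (TR1) T cells, holds 57 treated and 0 untreated cells, so that there is no untreated counterpart. The sub-clusters were defined on the expression of these cells, and the values are given as a description. All Twsg1 reads lay in sub-cluster 5, with 230 CPM in 9 of 57 cells (15.8%, 7.48 to 27.9%). Twsg1 had no read in the 133 treated cells of sub-cluster 4 or the 61 of sub-cluster 2, which allows up to 2.26% and 4.92%. Tgfbr1, in contrast, had 42.2 CPM in treated sub-cluster 2 (2 cells) and 15.5 CPM in sub-cluster 4 (7 cells), but 0.19 CPM in sub-cluster 5 (1 cell). Both of the sub-cluster 2 cells with Tgfbr1 reads held macrophage marker reads as well. The 47 sub-cluster 2 cells with no macrophage or hepatocyte read had no Tgfbr1 read, which allows a share of up to 6.38%.

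Tgfbr2 differed by sub-cluster too. In sub-cluster 4 it had 268 CPM in untreated (6 of 43 cells) and 30.9 CPM in treated cells (7 of 133). In sub-cluster 2 the order was the other way, with 117 CPM in untreated (18 of 228 cells) and 164 CPM in treated cells (5 of 61). Sub-cluster 5 had 39.9 CPM in 4 of 57 cells. The Tgfbr2 sum was thus lower with treatment within sub-cluster 4 and not within sub-cluster 2, and the number of cells with a read is small in each. Of the 7573 untreated reads in sub-cluster 4, single cells held 3632 and 2698. Of the 2435 treated reads there, a single cell held 1517, so that the difference within sub-cluster 4 rests on very few cells. Smad3 was read in every sub-cluster with at least 20 cells of a group, the only ones given here. It had 134 and 66.8 CPM in untreated sub-clusters 2 and 4. In treated sub-clusters 2, 4 and 5 it had 160, 94.3 and 73.9 CPM. Ski had 24.1 and 0 CPM in untreated sub-clusters 2 and 4, and 84.7, 45.6 and 15.8 CPM in treated sub-clusters 2, 4 and 5. The Ski reads came from 5 of 228 and 0 of 43 untreated cells and from 4 of 61, 5 of 133 and 1 of 57 treated cells. The 0 of 43 allows a share of up to 6.98%, above the 3.76% of treated sub-cluster 4, so that a difference in the share of cells was not detectable there. Without the cells with macrophage or hepatocyte reads, treated sub-cluster 2 had 78.1 CPM of Ski in 3 of 47 cells.

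The cells fall into 2 lanes by their names. The differences of Tgfbr2, Tgfbr1 and Ski were read in both, whereas those of Twsg1 and Tgfbr3 rested mostly on 1 lane each. In the first lane Tgfbr2 went from 134 CPM without to 59.2 CPM with treatment, and in the second lane from 154 to 69.9 CPM. Tgfbr1 went from 0.080 to 3.80 CPM and from 0.22 to 47.4 CPM, and Ski from 15.0 to 40.4 CPM and from 29.4 to 60.8 CPM. The direction held in each lane for these 3 genes. Of the 9 cells with Twsg1 reads, 8 were in the first lane (83.3 CPM) and 1 in the second (1.15 CPM), and the lanes held 42 and 15 cells of sub-cluster 5. Tgfbr3 had 35 treated counts in the first lane (log2 ratio 0.43, under 2-fold) and 558 in the second (3.68).

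Cells with reads of other cell types were present in the treated group. The summed level of 5 macrophage markers was 0.017 CPM without and 1919 CPM with treatment, 5 of 5 being higher, and 11 treated cells, all in sub-cluster 2, held their reads at 1690 CPM or more. Hepatocyte markers (4 of 4 higher) were at 0 and 82.3 CPM, with reads in 3 treated cells, and stellate cell markers were at 0 in both groups. B cell markers were at 0.012 and 0 CPM, platelet markers at 0 and 0.12 CPM and endothelial markers at 1.05 and 18.5 CPM, the latter from 1 of 4 genes, Pecam1. None of the cells with reads of Tgfbr2, Tgfbr3, Smad3, Skil or Twsg1 in the treated group held macrophage or hepatocyte reads, while 2 of 10 with Tgfbr1, 1 of 10 with Ski, 1 of 6 with Tgfb1 and 1 of 7 with Smad7 held macrophage reads. Without the cells with such reads, which leaves 270 untreated and 237 treated cells, Tgfbr1 stood at 0.13 and 8.68 CPM (log2 ratio 3.10), Tgfbr2 at 142 and 66.04 CPM, Ski at 20.2 and 43.6 CPM and Twsg1 at 0 and 60.5 CPM. The same 5 members were then past 2-fold. Over all cells in the deposited tables the count was 4, since Tgfbr2 had a log2 ratio of −0.97. Of 5 stress genes that respond to cell handling, Fos, Jun and Dusp1 were lower in treated cells by more than 2-fold, Hspa1b was higher (28.6 and 61.2 CPM) and Hspa1a was just under 2-fold with 1 CPM added to both groups (21.7 and 44.1 CPM before the addition). The summed level, held mostly by the first 3, went from 8098 to 3204 CPM, and its part in the results was not tested.

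The other genes of the pathway went both ways, with more lower than higher calls. The median log2 ratio was 0.55 over the receptor genes tested and −0.11 over the SMAD genes. It was −0.52 over the ligand and activation genes, −1.14 over the BMP ligands and antagonists and −0.55 over the regulators, against 0.02 over all genes. Their counts stand beside 20.1% of all genes higher and 17.2% lower by 2-fold. Of 5 further receptor genes tested among 10, Acvr1b (3.07 and 8.08 CPM) and Bmpr2 (0 and 10.4 CPM) were higher and Acvr2a (3.55 and 0.42 CPM) and Bmpr1a (1.02 and 0 CPM) lower by more than 2-fold. These calls rest on few cells, with Acvr1b read in 2 untreated and 3 treated cells, Bmpr2 in 6 treated cells, Acvr2a in 5 untreated cells and 1 treated cell, and Bmpr1a in 3 untreated cells of which 1 held 98.3% of the reads. Of 3 SMAD genes tested among 6, the common partner Smad4 was higher (21.3 and 44.5 CPM), the BMP-responsive Smad5 lower (68.9 and 27.3 CPM) and Smad2 within 2-fold (88.6 and 82.3 CPM). Of 5 ligand and activation genes tested among 17, only the protease gene Furin (9.52 and 4.01 CPM) passed, being lower. Of 2 BMP ligands and antagonists tested among 8, Bmp7 was lower (58.9 and 12.2 CPM). In untreated and treated cells, Smad4 was read in 4 and 6 cells, Smad5 in 13 and 5, Furin in 12 and 8 and Bmp7 in 11 and 2. A single cell held 67.2% of the treated Furin reads, and a single cell 88.2% of the treated Bmp7 reads. These genes were named after their values were seen, since few passed.

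Of 19 regulators of the pathway tested among 23, 2 were higher and 7 lower, with a median log2 ratio of −0.55, where 20.1% and 17.2% of all genes passed in these directions. Several of these calls rest on few cells, with Usp11 read in 2 treated cells, Nedd4l in 1 untreated cell and Smurf1 in 3 untreated cells and 1 treated cell. The higher ones were Usp11 and Tgif1, and the lower ones were Map3k7, Nedd4l, Smurf1, Smurf2, Tab1, Trim33 and Wwp1. Fkbp1a, which encodes the FKBP12 protein that binds the type I receptor, was the regulator named for wide detection, with 109 CPM (37 cells) without and 213 CPM (52 cells) with treatment, just under 2-fold with 1 CPM added. Map3k7, the gene of the TAK1 kinase, had 27.7 CPM in 8 untreated cells and no read in 251 treated cells.

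Genes listed here as raised by TGF-β were split between sparse and widely read genes. Their response to TGF-β in LiNKT cells was not tested, and the direction is least settled for Id1, Id2 and Id3. Of 10 tested among 13, 6 were higher and 1 lower (20.1% and 17.2% of all genes), with a median log2 ratio of 1.16, but each of the 6 (Itgae, Tgif1, Cdkn2b, Id1, Id3 and Foxp3) was read in at most 5 treated cells. Of the 2 named for wide detection, Junb was lower, as were the stress genes Fos and Jun, and Id2 was within 2-fold. Junb was read at 2514 CPM (235 cells) without and 1084 CPM (156 cells) with treatment, and Id2 at 3693 CPM (255 cells) and 2836 CPM (188 cells). For the genes listed as restrained by TGF-β, the response in LiNKT cells was not tested either. Both lists were drawn up with earlier results of these data known. Of 8 genes of the second list tested among 9, 5 were higher in treated cells and 0 lower. Their median log2 ratio was 1.24, and the shares of all genes are the same 20.1% and 17.2%. Of the 5, Il2 was read in 8 untreated and 3 treated cells with 99.6% of the treated reads in 1 cell, Klrg1 in 6 and 11 cells and S1pr1 in 4 and 16 cells. Gzmb, the granzyme B gene, stood at 1151 CPM (68 cells) without and 3344 CPM (125 cells) with treatment, and Prf1, the perforin gene, had 153 CPM in 19 and 321 CPM in 29 cells. Ifng (136 and 192 CPM) and the T-box factor gene Tbx21 (463 and 432 CPM) were within 2-fold.

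The methylation comparison asked where cytosines near the members differed between treated and untreated LiNKT cells. The largest gain lay in an intron of Tgfbr2 and the largest losses in introns of Tgfbr3, with a further loss in an intron of Twsg1. The gain at Tgfbr2 and the loss at Twsg1 were known when the members were listed, so the counts that follow partly restate that choice. Of the 9 members, 5 had a differentially methylated region within 50 kb, 4 of them a region less methylated in the treated group and 3 a region more methylated. Over 21938 protein-coding genes these shares are 16.7% for any region, 11.3% for a loss and 6.93% for a gain. The members are long genes, with a median span of 61.7 kb against 17.4 kb over all genes, and the part of span in this count was not tested. All 5 have a region inside the span, against 6.10% of all genes. Of the other 7 members, without Tgfbr2 and Twsg1, 3 had a region within 50 kb, 2 a loss and 2 a gain. Of the 10 regions, 8 lie in introns and 2 upstream, 5 were lower and 5 higher. Over all 2873 regions, 1983 were lower in the treated group and 890 higher. Tgfb1, Tgfbr1, Smad7 and Skil had no region within this distance.

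Methylation levels below are means over the CpG cytosines of both strands in a region with the SD over cytosines, which is not an error between mice, and the read depth behind them is unknown. Region 1 of Tgfbr2 (chr9:116133447-116133986) lies in an intron with its middle 41.6 kb into the gene. Its 13 cytosines went from 33.9% ± 11.3 in the untreated to 78.9% ± 8.85 in the treated group, a gain of 45.0 points. The ranges, 13 to 50% and 57 to 88%, do not overlap, and 13 of 13 cytosines were higher. Region 3 (chr9:116216795-116217042), upstream of the gene by 41.4 kb, was alike, with 24.8% ± 12.7 and 69.5% ± 11.6 over 16 cytosines.

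Between the gene and region 3, region 2 of Tgfbr2 (chr9:116211911-116212375), 36.6 kb upstream, went the other way. Its 24 cytosines had 15.7% ± 5.22 in the untreated and 2.25% ± 4.87 in the treated group. It was low in both groups and differed least among the 10 regions.

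Tgfbr3 had a pair of losses inside the gene. Region 1 (chr5:107260752-107261008) went from 76.9% ± 12.05 to 26.9% ± 8.35 over 12 cytosines, and its ranges of 53 to 92% and 17 to 44% do not overlap. Region 2 (chr5:107283984-107284429), with its end 5200 bases from the start site, went from 79.1% ± 17.9 to 28.4% ± 16.9 over 16 cytosines. The levels fell by 50 and 50.8 points, the largest differences near the members.

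Smad3 carried 3 regions of both directions in its introns. Region 1 (chr9:63707889-63708418) went from 25.1% ± 9.09 to 52.6% ± 16.99 over 16 cytosines and region 3 (chr9:63749569-63750174) from 13.8% ± 17.7 to 46.4% ± 20.02 over 23 cytosines. Region 2 (chr9:63718702-63718911), between them, went from 67.5% ± 12.5 to 27.2% ± 9.64 over 10 cytosines. Within Smad3 methylation thus went both ways.

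Region 1 of Ski (chr4:155195386-155195674), in an intron, went from 38.8% ± 9.69 to 67.1% ± 11.1 over 16 cytosines. Region 1 of Twsg1 (chr17:65939309-65939682), in an intron, went from 76.3% ± 9.66 to 41.2% ± 11.5 over 14 cytosines, so that its level fell by 35.1 points. The Twsg1 ranges, 61 to 89% and 24 to 54%, do not overlap, and 14 of 14 cytosines were lower. In all 10 regions every cytosine moved in the direction of its region, and the direction itself was fixed when the regions were called. In these sorted cells a change of methylation within cells and a change in the shares of the sub-clusters cannot be told apart.

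**Figure D3:**
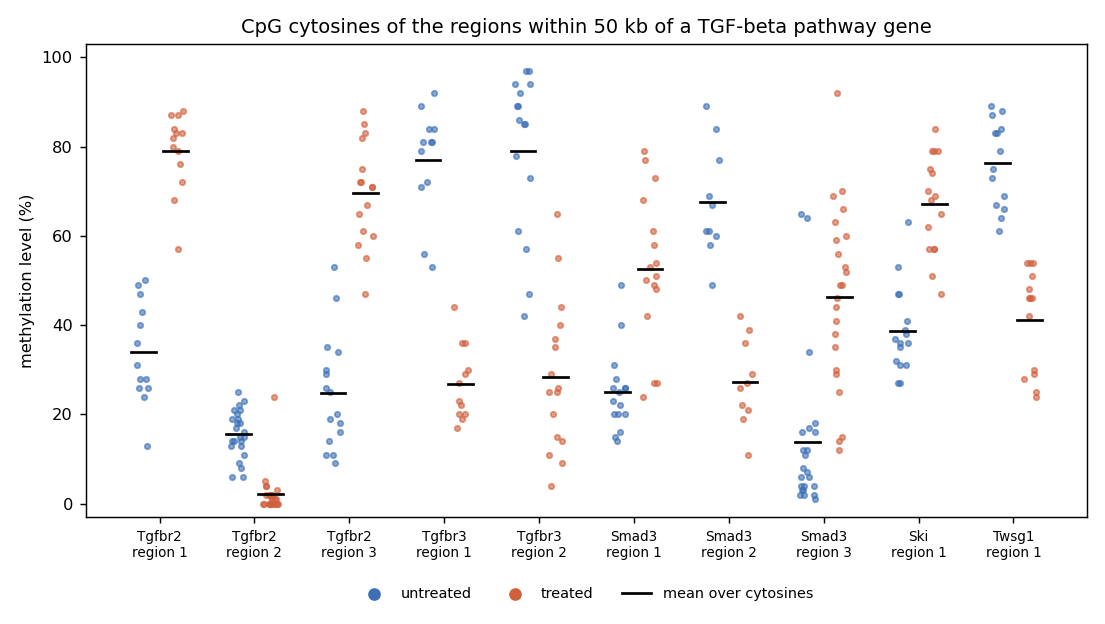
Methylation level in percent of each CpG cytosine in the 10 regions within 50 kb of a member, untreated in blue and treated in orange, with a line at the mean of each group. The groups do not overlap in region 1 of Tgfbr2, region 1 of Tgfbr3, region 2 of Smad3 and region 1 of Twsg1, and region 2 of Tgfbr2 is low in both.

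Set beside the RNA, the directions differed from gene to gene. Twsg1 had a loss of methylation and reads in treated cells only, and Tgfbr3 had 2 losses and reads in 3 treated cells. Tgfbr2 had 2 gains and 1 loss and a lower RNA sum. Ski had a gain and a higher RNA sum, Smad3 had both kinds of region and a near-equal sum, and Tgfbr1, with the largest ratio among members read in both groups, had no region within 50 kb.

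The sequences were searched on both strands for CAGAC, the core bound by SMAD3 and SMAD4, and for its palindrome GTCTAGAC. They were also searched for TGANTCA, which is the AP-1 site TGA(C/G)TCA with any middle base allowed. Among the windows read here, CAGAC occurs 2 times each in region 1 of Tgfbr3, region 1 of Ski and region 1 of Smad3, and 1 time in region 2 of Tgfbr3. TGANTCA occurs 1 time in region 1 of Tgfbr3, as TGAATCA, and 1 time in region 3 of Smad3, as TGATTCA. Neither match has the middle C or G of the AP-1 site, and the palindrome occurs in no window. The windows shown for Twsg1 and Tgfbr2 hold none of the 3. In RefSeq promoter windows of 300 bases, CAGAC occurs 2 times in that of Twsg1, 1 time in that of Tgfbr2 and 1 time in the second of 2 windows of Tgfbr1, and not in those of Ski, Smad3 and Tgfb1. As 49.6% of 32817 promoters hold CAGAC, 7.81% TGANTCA and 0.213% the palindrome, these matches are descriptions of the letters only.

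The chromatin fragments were used to ask whether the same genes differed in accessibility between the barcode endings. A fragment records a pair of insertions of the transposase into open DNA, 1 at either end, and levels are insertions per 1000000 insertions of that ending (IPM). Of 998453 barcodes, 15802 with at least 1000 fragments were kept: 8565 with ending 1 (162817764 insertions) and 7237 with ending 2 (149740716 insertions). Of these, 100 barcode sequences occurred with both endings. No doublet caller was run on the fragments, so barcodes with more than 1 nucleus may be among those kept. At the promoters, 2 kb on either side of the start site, 0 of 9 members differed by 2-fold, against 6.75% of 16328 promoters (5.9% higher for ending 2 and 0.845% higher for ending 1). Windows of 500 bases in or near the members are given below. Genome-wide, 11.1% of 161059 such windows differed by 2-fold between the endings.

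The promoters of 8 members were open to a like degree for both endings. Ski had 91.9 and 89.5 IPM for endings 1 and 2, Smad3 73.6 and 67.0, Skil 66.8 and 73.7, and Tgfb1 64.8 and 69.4. Tgfbr1 had 56.7 and 54.8 IPM, Smad7 54.1 and 48.9, Tgfbr2 53.8 and 55.3, and Twsg1 26.0 (25.3 to 26.8) and 30.6 (29.7 to 31.5). Tgfbr3 had the lowest level and the largest difference, with 10.2 (9.71 to 10.7) and 14.1 (13.5 to 14.7) IPM. The Twsg1 promoter was therefore open for both endings.

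**Figure D4:**
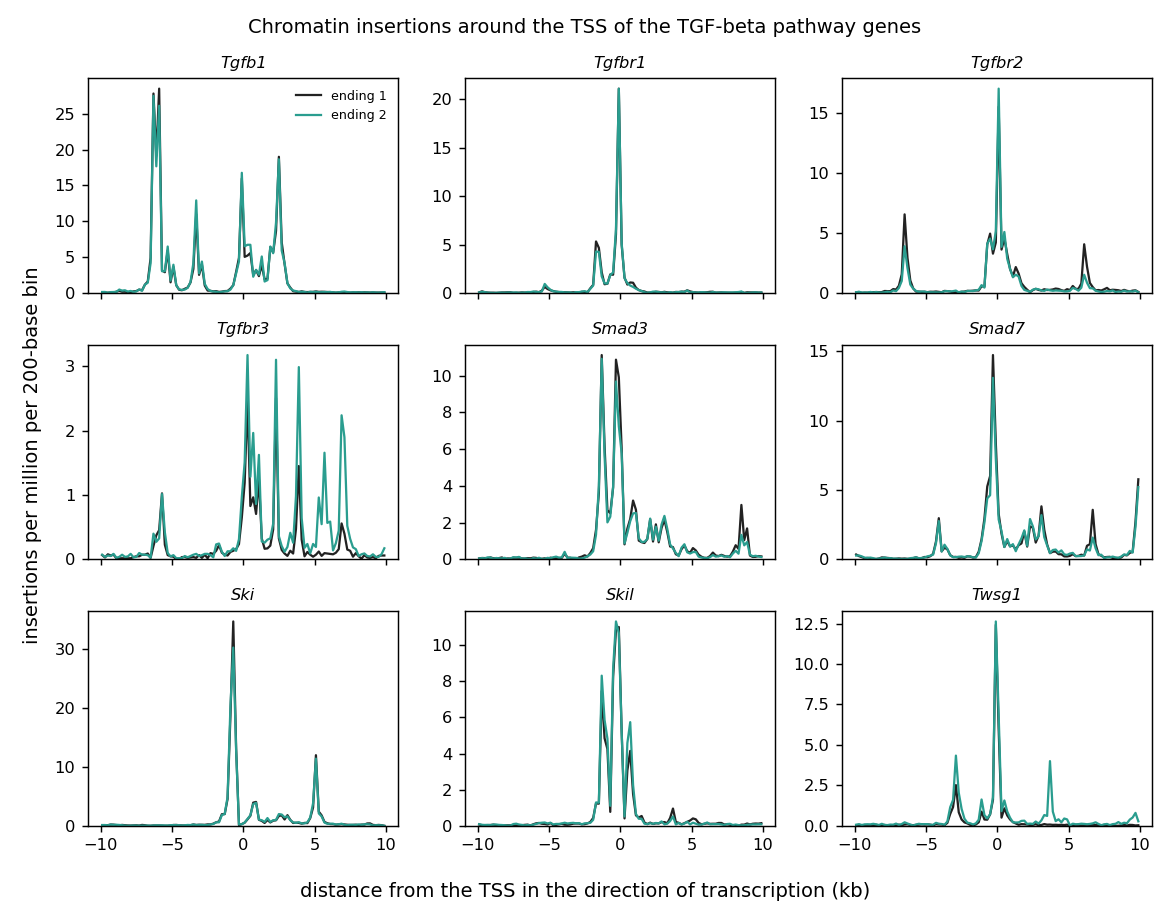
Insertions scaled to 1000000 per ending (IPM) in 200-base bins within 10 kb of the start site of each member, in the direction of transcription, for barcodes ending in 1 (black) and in 2 (green). Signal near the start sites is of like height for both endings except in Tgfbr3, where it is higher for ending 2. Twsg1 and Tgfbr3 show further signal for ending 2 inside the gene. The vertical scales differ between genes.

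Over the whole span, Twsg1 had 14.8 IPM (14.3 to 15.4) for ending 1 and 47.7 (46.6 to 48.9) for ending 2, a log2 ratio of 1.69. It was the member past 2-fold, in a background of 3.57% of 18358 gene spans, or 2.85% in its direction. Tgfbr3 followed with 89.4 and 141 IPM, and Tgfbr2 was lower for ending 2, with 176 and 136. The spans of the other 6 members were within 0.18 on the log2 scale.

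Finer windows of 500 bases with at least 200 insertions, within 50 kb of each gene, placed these differences. In Twsg1, 12 of 32 windows were at least 2-fold higher for ending 2 and 0 higher for ending 1, against 6.04% and 5.09% of 161059 windows genome-wide. In Tgfbr3, 11 of 44 were higher for ending 2 and 2 for ending 1. Tgfbr2 had 1 and 9 of 73, the reverse order. Smad3 had 4 and 3 of 123 windows, Smad7 3 and 1 of 67, Tgfb1 0 and 2 of 64, Ski 0 and 1 of 89, Skil 0 and 1 of 22 and Tgfbr1 0 and 0 of 32. The Twsg1 windows include one upstream of the gene (chr17:65961501-65962000), with 7.54 and 27.8 IPM.

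At the methylation regions, the intron of Twsg1 differed most. Region 1 of Twsg1 had 13 insertions for ending 1 (0.080 IPM, 0.043 to 0.14) and 379 for ending 2 (2.53 IPM, 2.28 to 2.80), a log2 ratio of 4.93 (4.19 to 5.91). Of the barcodes, 0.128% (0.064 to 0.23%) and 3.68% (3.25 to 4.14%) had an insertion there. Region 1 of Tgfbr3 had 28 and 314 insertions (log2 ratio 3.58) and its region 2 had 32 and 279 (3.23). Region 2 of Smad3 had 92 and 208 (1.29), and region 2 of Tgfbr2, an open site, 1737 and 1480 (−0.11).

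Of the 5 regions that were more methylated in the treated group, 4 had fewer insertions for ending 2 beyond counting error, and region 1 of Smad3 did not differ beyond it. Region 1 of Ski had 251 and 76 insertions (log2 ratio −1.60, −1.99 to −1.23), region 3 of Tgfbr2 190 and 80 (−1.12, −1.52 to −0.74) and region 1 of Tgfbr2 70 and 39 (−0.71, −1.33 to −0.14). Region 1 of Smad3 had 465 and 404 (−0.08, −0.28 to 0.11) and its region 3 had 320 and 179 (−0.72, −0.99 to −0.45). Of the 5 regions with a loss, 4 were at least 2-fold higher for ending 2, and of the 5 with a gain, 2 were at least 2-fold higher for ending 1. Over all regions of the table with enough insertions these shares were 75.3% of 1812 and 35.8% of 849, near those of the members. In the opposite direction they were 0.276% and 1.88%, and 0 of the 10 regions near members.

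**Figure D5:**
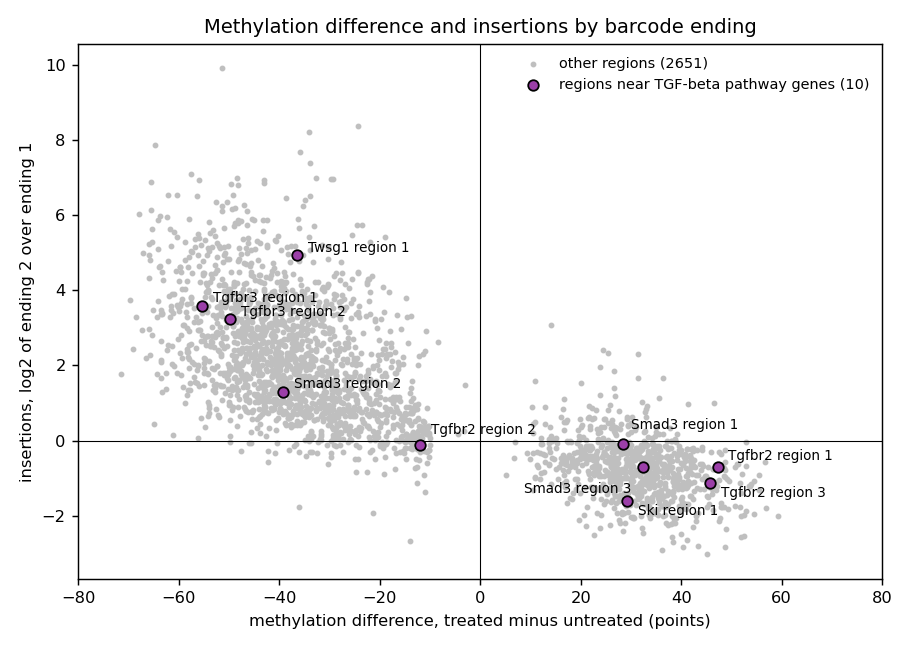
Log2 ratio of insertions for ending 2 over ending 1 against the methylation difference in points (treated minus untreated) in each differentially methylated region, regions near the members in purple and all others in grey. Regions 1 of Twsg1 and 1 and 2 of Tgfbr3 lie at the upper left and region 1 of Ski at the lower right, within the cloud of the other regions.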

How the data were processed

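SmartSeq2 count values were deposited by the authors without normalization, as reads per gene of each cell after STAR alignment (GRCm38). The fraction values of WGBS sites and regions were deposited by the authors as methylated over all reads at a cytosine, with replicates of a group as 1 value; the q-value and difference columns of the deposited region table hold the authors' own comparison and served only for 1 alternative, without being printed. Chromatin count values are fragments deposited by the authors from the Cell Ranger pipeline, and the other deposited columns hold positions and names. All sample columns had a source. Per the labels, tools of the other data include Bowtie2, MACS2, DiffBind, Seurat and Signac.

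Counts were summed over the cells in the study's list of cells with a sub-cluster (11 untreated and 31 treated cells are not in it), scaled to CPM, and compared as a log2 ratio with a prior of 1 CPM among genes with at least 10 summed counts; no test was possible. Poisson and exact binomial intervals are at 95%. Exon lengths and spans follow GENCODE M21. Regions were paired with a gene within 50 kb of its span. Insertions were counted by barcode ending in barcodes with at least 1000 fragments, with at least 100 insertions for a promoter, 20 for a region and 200 for a window. The calling of 2-fold differences was checked on simulated data with counting error only. The simulation had no differences between cells, so it does not cover genes whose reads come from few cells. Alternatives were other scalings (TMM of edgeR 4.0.16 and median of ratios), priors, cell filters, lanes, distances, minimums of CpG cytosines and barcode minimums. Python 3.11.15, numpy 2.4.6, pandas 2.3.3, scipy 1.17.1, pysam 0.24.0 and R 4.3.3 were used.

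The members and lists were chosen with earlier results of these data known, among them the gain at Tgfbr2 and the loss at Twsg1. Named genes were the 9 members and, of each other list, the 5 highest and 5 lowest among those with 500 or more summed counts that were read in 10% or more of either group's cells; others were named only where a count was small. Bulk ATAC-seq, ChIP-seq and 10X RNA data were not analysed here.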

Additional observations from a re-analysis of the deposited data

How the results depend on the processing

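The 9 log2 ratios of summed expression gave 99 values under other settings, of which 95 had the same sign. The 4 others were Tgfb1 over all cells of the tables (−0.21), Smad3 in the second lane (0.75) and Skil in the first lane (1.16) and without its top cells (0.53). The ranges were 2.14 to 6.28 for Tgfbr1, −1.18 to −0.80 for Tgfbr2, 0.31 to 5.35 for Tgfbr3, 0.91 to 1.43 for Ski and 1.10 to 9.17 for Twsg1. Of the 2-fold calls, those of Tgfbr2 (−0.80) and Ski (0.91) were lost with every cell given the same weight, and that of Tgfbr3 with a prior of 5 CPM (0.84), in the first lane (0.43) and without its top cell (0.31). Smad7 passed 2-fold with a prior of 0.1 CPM (−1.04), in the second lane (−2.88) and without its top cells (−1.47), and Skil passed in both lanes, in opposite directions (1.16 and −3.70). The cause of these differences was not tested. With only regions of at least 20 CpG cytosines, counted on both strands as in the deposited table, 2 members had a region, 1 with a loss and 1 with a gain, against 7.85%, 4.28% and 4.05% of 21938 protein-coding genes. All 10 methylation differences kept their sign with the table's own means, which is no check, since the regions were called on that difference. Of 36 promoter values, 34 kept their sign. Leaving out cells with macrophage or hepatocyte reads, and the counts of members past 2-fold under other scalings, were chosen after seeing the data, and 5 members passed in each. So was the count over all cells of the deposited tables, where 4 passed and Tgfbr2 (−0.97) did not, so that no lower member was left.

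No paired analysis was possible because each assay has 1 sample per group. The number of mice behind a difference cannot be seen in these tables. Reads without molecular identifiers, few genes read per cell and unknown bisulfite depth limit the precision, and which ending belongs to which treatment is unknown.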
